A study of Homo sapiens with 8 samples.

Results

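The comparison described is that of A549 cells given the morning pollutant mixture with A549 cells kept in clean air at the same time of day. Its members are 4 of the 8 arrays of the series: 2 of the primary pollutants group (labelled as the fresh urban mix) and 2 of the morning control group (the control for the fresh exposure). A549 is an established human lung epithelial line derived from an adenocarcinoma. All cells were grown at the air-liquid interface and exposed for 4 h, the primary group to a synthetic mixture of urban gases and nitrogen oxides injected into an outdoor sunlit chamber and drawn in the morning, when part of the starting chemicals had begun to react, and the control group to humidified air (incubator air in the study's methods). RNA was taken 9 h after the exposure. The other 4 arrays hold an evening exposure to the same mixture after a day of irradiation (the photochemically altered, or PCA, pollutants, labelled aged) and its own evening control. A result from 1 line stands for no other lung epithelium, and 2 arrays a group, from 1 exposure run, limit the precision of every value.

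Freshly emitted urban air carries nitric oxide, nitrogen dioxide and volatile hydrocarbons, which reach airway epithelium as gases. Epithelial cells answer irritants through a small set of shared routes. NF-kB, held in the cytoplasm by its inhibitor IkB-alpha (the product of NFKBIA), drives chemokines such as CCL2 and its own inhibitor, growth factor receptors signal through MAP kinases that induce their own phosphatases, and interferons and RNA sensors raise genes such as OAS1.

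Differences between the primary pollutants and the morning control were small. No gene passed the test, a Benjamini-Hochberg adjusted p under 0.05 from limma with a fold change of at least 1.5 (0 of 17381 genes, 0.0%), and the smallest adjusted p was 0.22, for SLC5A3. At an unadjusted p under 0.05 there were 1384 genes (7.96%), 572 higher (3.29%) and 812 lower (4.67%) after exposure. Of these, 17 also differed by at least 1.5-fold (0.0978%), 11 higher (0.0633%) and 6 lower (0.0345%), and no gene reached 2-fold (0.0%). Neither group's arrays overlapped the other's at 2956 higher (17.0%) and 3779 lower (21.7%) genes. The count of 0 depended on how the spread was estimated: with a trended, robust prior 6 genes passed, CCL2, SLC5A3, OAS1, NFKBIA and PAQR5 higher and ACSM3 lower. With the 4 controls of both times of day pooled 5 passed, namely CCL2, SLC5A3, OAS1, NFKBIA and HEATR5A, all higher.

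The exposed arrays also differed from each other more than the controls did. The median absolute log2 difference over genes was 0.074 between the morning controls and 0.11 between the primary arrays, against a median absolute log2 fold change of 0.078. Replicate 1 lay farther from the control mean than replicate 2 at 57.6% of genes, and both lay on the same side of it at 59.6%. Because both are set against the same control mean, some agreement in side arises without any effect of exposure. The share to be had from this alone was not computed. The same holds for the list medians given below for each replicate.

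**Figure D1:**
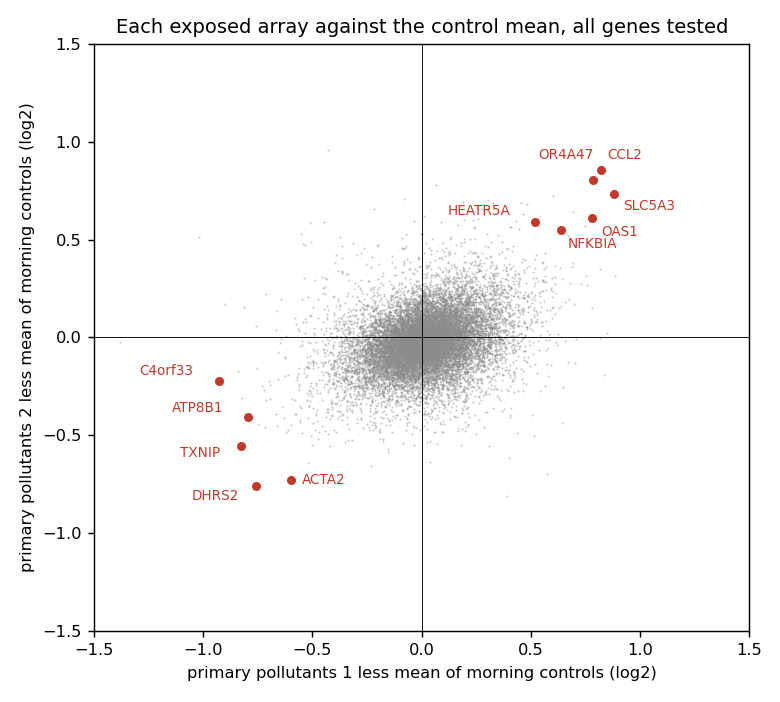
Each point is 1 of 17381 genes, placed by the log2 signal of primary pollutants replicate 1 (x axis) and replicate 2 (y axis) less the mean of both morning controls. Most genes lie near 0 on both axes, whereas CCL2 stands at 0.82 and 0.86 and TXNIP at -0.83 and -0.56. Both axes subtract the same control mean, so points can agree in sign without any effect of exposure.

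Genes of inflammatory signalling were among the highest. CCL2, which encodes a chemokine that draws monocytes, had log2 signals of 7.80 and 7.97 on the control arrays and 8.70 and 8.74 on the exposed arrays. The nearest arrays of the groups were 0.74 apart, and the log2 fold change was 0.84 (SE 0.11, n = 2 arrays a group, adjusted p = 0.255), or 1.79-fold, the largest of all genes tested. NFKBIA read 10.37 and 10.38 on the controls and 11.01 and 10.93 after exposure. Its log2 fold change was 0.59 (SE 0.072, adjusted p = 0.24), with the groups 0.55 apart. Both genes were at the higher level on each exposed array.

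CCL2 has no entry in the RefSeq promoter table used. The 250 bases before the start of NFKBIA are shown because they hold the kB motif through which NF-kB is known to induce its own inhibitor. Those before OAS1 are shown because they hold matches to the core of the interferon regulatory factor (IRF) element, letters AANNGAAA, a pattern chosen after this sequence had been seen. The sequences are from RefSeq on GRCh38.p14, 5′ to 3′ on the gene's strand, with the matched letters in capitals; NFKBIA is chr14:35404750-35404999 on the minus strand, with its kB match 81 bases before the start, and OAS1 is chr12:112906712-112906961 on the plus strand, with matches 52 and 16 bases before the start.
NFKBIA: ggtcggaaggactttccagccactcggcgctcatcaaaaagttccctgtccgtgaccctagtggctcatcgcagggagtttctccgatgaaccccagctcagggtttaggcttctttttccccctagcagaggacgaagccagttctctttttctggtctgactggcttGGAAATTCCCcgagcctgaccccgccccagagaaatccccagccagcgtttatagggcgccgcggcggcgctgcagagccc
OAS1: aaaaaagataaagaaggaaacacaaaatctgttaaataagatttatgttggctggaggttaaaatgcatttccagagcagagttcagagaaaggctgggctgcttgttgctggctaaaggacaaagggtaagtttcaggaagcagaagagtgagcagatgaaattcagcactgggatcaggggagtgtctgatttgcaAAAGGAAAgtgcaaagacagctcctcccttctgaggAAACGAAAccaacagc

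Such matches were common. A promoter sequence was found for 13518 of 17381 genes tested, and either strand was searched. The kB motif occurred in 11.3% of them, in 10.7% of the 431 promoters of genes that were higher (unadjusted p under 0.05, groups apart) and in 11.6% of the 666 promoters of genes that were lower. The IRF core occurred in 15.8% of all promoters, 20.4% of those of higher genes and 18.0% of those of lower genes. The AP-1 motif, letters TGANTCA, was found in 4.73% of all, 6.5% of the higher and 3.45% of the lower. A match describes letters in this window and is no binding site.

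Among chemokines, 12 of 23 genes tested had both exposed arrays above both controls (52.2%, against 17.0% of all genes) and 1 had both below (4.35%, against 21.7%). Of all genes with a mean log2 signal between 6 and 7, 17.9% were higher and 13.6% lower without overlap, and the list's median signal was 6.37. The median log2 fold change of the list was 0.12, against -0.0073 over all genes. It was 0.16 on replicate 1 and 0.12 on replicate 2. CXCL5, a neutrophil chemokine, had signals of 10.31 and 10.48 on the controls and 10.995 and 10.63 on the exposed arrays, so that replicate 2 lay only just above control replicate 2. Its log2 fold change was 0.42. CCL11, an eosinophil chemokine, was 0.33 higher and CXCL3 0.28 higher on the log2 scale, both without overlap. CCL7 had the lowest value of the list, -0.18, and overlapped between groups. CXCL8, which encodes IL-8, had a log2 fold change of -0.064 after the primary and 0.68 after the PCA pollutants. That difference of 0.74 passed the limma test of the difference between the responses (adjusted p = 0.0359), a call that rests on the full set of 8 arrays. In the list of IL-6 and IL-1 family cytokines and receptors 9 of 18 genes were higher without overlap (50.0%) and 2 lower (11.1%), with a median of 0.092. IL6 is 1 of the 9, at 4.65 and 4.80 on the controls and 5.07 and 4.96 after exposure. Both controls lay under the signal limit of 4.91, so IL6 was tested only through its exposed arrays, and 8 of 17 were higher without it. The decoy ligand gene IL1RN and the receptor subunit gene IL1RAP each differed by 0.22.

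Of 19 NF-kB subunit and feedback inhibitor genes, NFKBIA included, 4 were higher (21.1%, against 17.0% of all genes) and 6 lower (31.6%, against 21.7%) without overlap, with a median of 0.021. IKBKG, the regulatory subunit of the kinase that marks IkB for destruction, had the lowest value, a log2 fold change of -0.26, with the groups 0.18 apart.

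OAS1, an enzyme that senses double-stranded RNA and activates RNase L, had log2 signals of 10.07 and 10.01 on the controls and of 10.82 and 10.65 on the exposed arrays. The log2 fold change was 0.70 (SE 0.085, adjusted p = 0.24), or 1.62-fold, and the groups were 0.58 apart. Interferon-induced genes went both ways. Of 38 tested, OAS1 included, 19 had values above 0 and 19 under it, and 6 were higher (15.8%) and 10 lower (26.3%) without overlap, close to the 17.0% and 21.7% of all genes. The list's median was -0.0035, which became 0.094 with arrays scaled to ribosomal protein genes. OAS2, a related enzyme, was at 5.54 and 5.60 on the controls and 5.84 and 5.77 after exposure, a difference of 0.23. HERC6, a HERC family gene of the interferon program, had 7.28 and 7.25 on the controls and 6.83 and 6.77 after exposure. Its log2 fold change was -0.46 (SE 0.072, adjusted p = 0.28). TRIM22, an antiviral ubiquitin ligase gene, differed by -0.28 without overlap.

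Growth factor signalling genes held values of both signs. DUSP5, a phosphatase that switches off ERK, read 8.97 and 9.06 on the controls and 9.54 and 9.42 on the exposed arrays, a log2 fold change of 0.46 (SE 0.082, adjusted p = 0.347). DUSP1, a phosphatase of the stress kinases, was 0.37 higher, DUSP6, an ERK phosphatase, 0.31 higher and ETV4, a transcription factor downstream of ERK, 0.25 higher. In the list of MAPK feedback genes 10 of 19 were higher without overlap (52.6%, against 17.0% of all genes) and 2 lower (10.5%, against 21.7%), with a median of 0.094. SPRY1, a receptor signalling inhibitor, had the lowest value, -0.24, and overlapped between groups. The list's median was above 0 on both exposed arrays, at 0.19 and 0.080.

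The receptor EGFR had signals of 8.96 and 9.02 on the controls and 9.32 and 9.31 after exposure, a log2 fold change of 0.33. Its ligand HBEGF was 0.26 higher, and NRG1, a ligand of ERBB3, 0.36 higher. ERBB3 itself was lower, at 8.34 and 8.30 on the controls and 7.77 and 7.90 after exposure, with a log2 fold change of -0.49 (SE 0.095, adjusted p = 0.354). Of 12 ligand and receptor genes tested, 6 were higher (50.0%, against 17.0% of all genes) and 5 lower (41.7%, against 21.7%) without overlap.

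**Figure D2:**
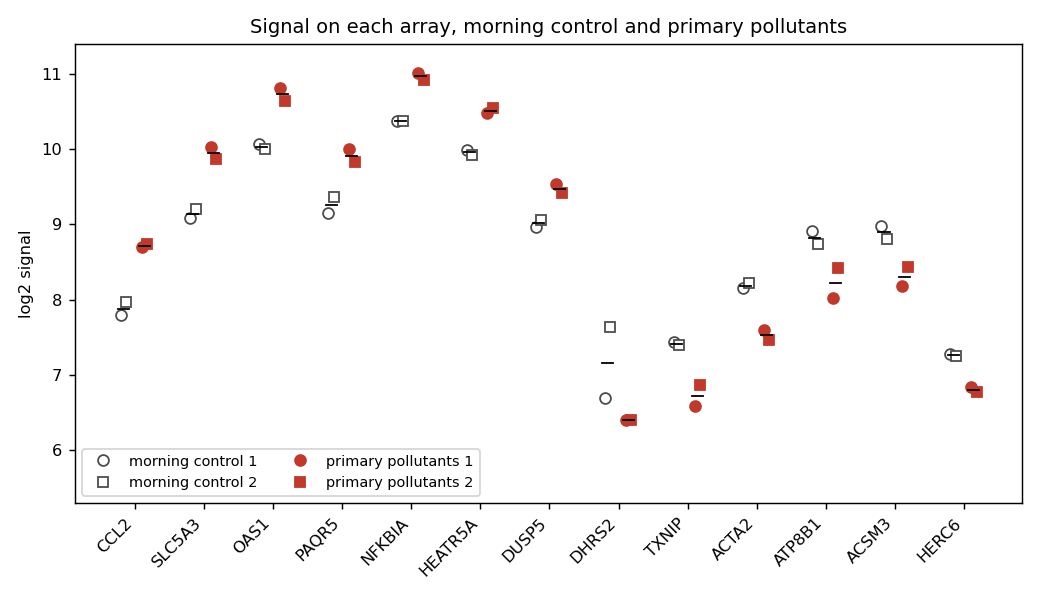
Log2 signal (y axis) of 13 genes on each of the 4 arrays, with open symbols for morning control and filled symbols for primary pollutants, circles for replicate 1 and squares for replicate 2, and a bar at each group's mean. No group overlaps the other at any of these genes, most of which were named by a rule that requires this. The control arrays of DHRS2, at 6.69 and 7.64, are farther apart than those of any other gene shown.

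SLC5A3, the sodium-coupled myo-inositol transporter through which cells gather an osmolyte, had the smallest adjusted p of all. The gene overlaps MRPS6 and shares transcribed sequence with it, so the probe set may read both. Its signals were 9.08 and 9.21 on the controls and 10.03 and 9.88 on the exposed arrays. The log2 fold change was 0.81 (SE 0.087, adjusted p = 0.22), or 1.749-fold, and the groups were 0.67 apart. In the list of osmotic stress genes 11 of 22 were higher without overlap (50.0%, against 17.0% of all genes) and 0 lower (against 21.7%). The list's median was 0.095 (0.091 on replicate 1 and 0.060 on replicate 2). SGK1, a kinase gene induced by cell shrinkage, and SLC2A13, a proton-coupled myo-inositol transporter, were each 0.24 higher. Heat shock proteins and co-chaperones had a median of 0.039, with 9 of 29 higher (31.0%, against 17.0% of all genes) and 2 lower (6.9%, against 21.7%) without overlap. HSPB1, a small heat shock protein gene, had the lowest value, -0.15, with the groups 0.073 apart. HSPA2, an HSP70 gene, read 9.42 and 9.52 on the controls and 9.88 and 9.82 after exposure, a log2 fold change of 0.38. HSPH1, its nucleotide exchange factor, was 0.29 higher, and the co-chaperone genes DNAJB6 and DNAJA1 were 0.24 and 0.22 higher.

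PAQR5, a membrane progestin receptor, was at 9.15 and 9.36 on the controls and 10.01 and 9.82 after exposure, a log2 fold change of 0.66 (SE 0.099, adjusted p = 0.28). Its family of 12, PAQR5 included, had a median of -0.011 (0.087 with arrays scaled to ribosomal protein genes), with 6 values above 0. Without overlap 4 were higher (33.3%, against 17.0% of all genes) and 2 lower (16.7%, against 21.7%). PAQR9 and PAQR4, at 0.18 and 0.096, were among the higher. HEATR5A had 9.99 and 9.93 on the controls and 10.48 and 10.55 on the exposed arrays. Its log2 fold change of 0.55 (SE 0.075, adjusted p = 0.255) fell short of 1.5-fold. DDIT4, an inhibitor of the growth kinase mTORC1, was 0.32 higher, with 9.69 and 9.65 on the controls and 9.99 and 9.98 on the exposed arrays.

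Several of the largest values came from genes near the bottom of the signal range. Only CCL2, SLC5A3, OR4A47 and LGALS16 had their nearest arrays at least 1.5-fold apart in the higher direction (4 genes, 0.023%), and none did in the lower (0.0%). Olfactory receptor genes can have near-identical copies that a probe set does not tell apart. OR4A47, one of them, read 5.04 on both controls and 5.82 and 5.84 after exposure, a log2 fold change of 0.79. LGALS16, a galectin gene best known in placenta, read 6.29 and 6.35 on the controls and 7.01 and 6.97 after exposure, a log2 fold change of 0.67. Its evening controls lay at 6.65 and 5.75, so its spread without any exposure exceeded this difference, and its SE was 0.24. Of the 15 genes with the highest values (unadjusted limma p under 0.05, groups apart), OR10G2, OR51D1 and OR56A4 are olfactory receptor genes too, at 0.63, 0.59 and 0.54. ADAM21 (0.60), the non-coding gene LINC03106 (0.55), SCGB1A1 (0.57) and DNAJC5B complete them. Both controls of DNAJC5B, at 4.36 and 4.15, lay under the signal limit of 4.91, so it was tested only through an exposed array and no size is given for it.

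Olfactory receptors are known from the nasal epithelium. Of 295 of their genes tested, 113 were higher without overlap (38.3%, against 17.0% of all genes) and 14 lower (4.75%, against 21.7%). The median log2 fold change was 0.12 (0.17 on replicate 1 and 0.065 on replicate 2). In 13 of the 295 both controls lay under the signal limit, 10 of them among the 113. The lean was shared by dim genes in general. Of genes with a mean log2 signal between 5 and 6, 23.9% were higher and 9.11% lower without overlap. Of those between 8 and 10, 13.7% were higher and 30.4% lower. The part of this lean in the values of dim genes was not tested. On the PCA arrays the median of olfactory receptor genes was 0.21.

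**Figure D3:**
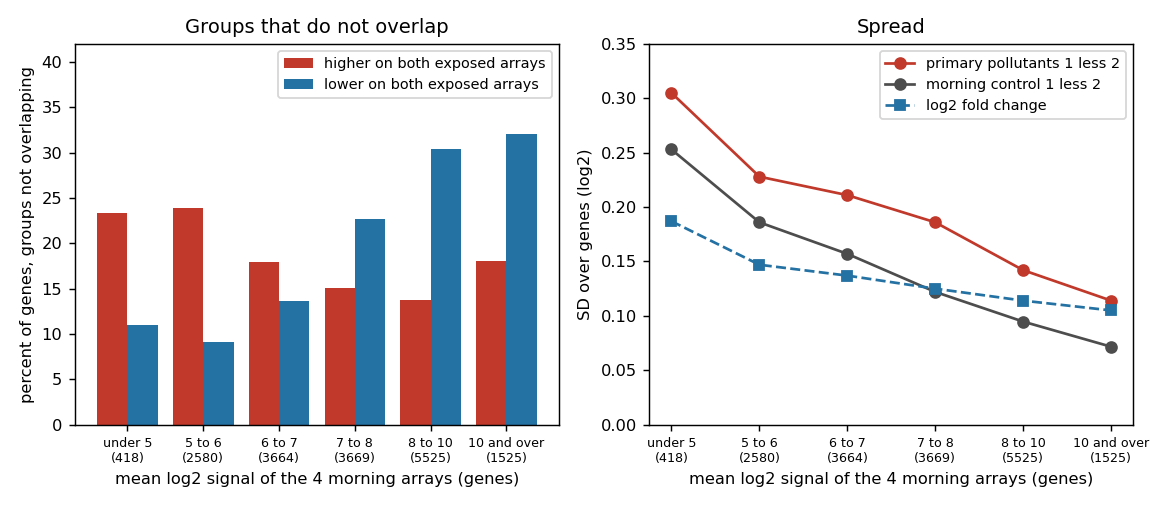
Left, percent of genes (y axis) whose groups did not overlap, higher or lower on both exposed arrays, by mean log2 signal of the 4 arrays (x axis, genes in brackets). Right, SD over genes (log2, y axis) of the difference between replicates and of the log2 fold change; the lean runs to higher values in dim genes and to lower values in bright genes, and the exposed arrays differ from each other more than the controls in every bin.

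At the lower end, TXNIP encodes an alpha-arrestin that limits glucose uptake and binds thioredoxin, and is induced by glucose and by FOXO factors. Its signals were 7.43 and 7.39 on the controls and 6.59 and 6.86 on the exposed arrays, and its log2 fold change was -0.69 (SE 0.14, adjusted p = 0.355), or 1.61-fold lower. Its relative ARRDC4 had 7.04 and 7.07 on the controls and 6.67 and 6.93 after exposure, a log2 fold change of -0.25. The 250 bases before TXNIP, chr1:145996580-145996829 on the minus strand of GRCh38.p14 (RefSeq), are shown for their 1 match to the FOXO motif, letters TGTTTAC read on the opposite strand, 124 bases before the start and in capitals.
TXNIP: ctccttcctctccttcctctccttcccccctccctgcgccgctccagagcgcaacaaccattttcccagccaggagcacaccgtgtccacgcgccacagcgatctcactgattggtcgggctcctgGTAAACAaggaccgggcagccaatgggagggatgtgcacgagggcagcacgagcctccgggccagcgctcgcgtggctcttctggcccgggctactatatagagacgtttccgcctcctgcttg

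The FOXO motif occurred in 2.09% of all promoters, 2.78% of those of higher genes and 2.85% of those of lower genes. Among FOXO factors and growth arrest genes 16 of 30 were lower without overlap (53.3%, against 21.7% of all genes) and 2 higher (6.67%, against 17.0%). Of all genes with a mean log2 signal between 8 and 10, 30.4% were lower, and the list's median signal was 8.07. Its median log2 fold change was -0.092, which became 0.0054 with arrays scaled to ribosomal protein genes. DEPTOR, an mTOR inhibitor, read 8.26 and 8.24 on the controls and 7.84 and 7.85 on the exposed arrays, a log2 fold change of -0.40. TP53INP1, a stress-induced gene of the p53 program, read 8.65 and 8.68 on the controls and 8.33 and 8.34 after exposure, a log2 fold change of -0.33. BCL6, a repressor, went the other way at 0.22.

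ACTA2, smooth muscle actin, had log2 signals of 8.15 and 8.22 on the controls and 7.59 and 7.46 after exposure, with a log2 fold change of -0.66 (SE 0.12, adjusted p = 0.354). MYLK, the kinase of myosin light chain, differed by -0.23 and CALD1, caldesmon, by -0.22. The list of contractile and SRF target genes had a median of -0.031, or 0.066 with arrays scaled to ribosomal protein genes. Without overlap 10 of 26 were lower (38.5%, against 21.7% of all genes) and 6 higher (23.1%, against 17.0%). The list's median signal was 8.51, and of all genes with a mean log2 signal between 8 and 10, 30.4% were lower and 13.7% higher. ATP8B1, a flippase that moves phospholipids to the inner leaflet, read 8.91 and 8.74 on the controls and 8.03 and 8.42 after exposure. Its log2 fold change was -0.60 (SE 0.13, adjusted p = 0.394), and replicate 1 was the farther array. ATP9A, another flippase, differed by -0.26, whereas ATP10B was 0.32 higher. ACSM3, a medium-chain acyl-CoA synthetase, read 8.99 and 8.81 on the controls and 8.18 and 8.44 after exposure, a log2 fold change of -0.59 (SE 0.10, adjusted p = 0.329).

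The lowest value of all belonged to DHRS2, a short-chain dehydrogenase, and it rested on 1 control array. The controls read 6.69 and 7.64, both exposed arrays 6.41, and the evening controls 6.29 and 6.50, so that the log2 fold change of -0.76 had an SE of 0.27. The rest of the 15 lowest (unadjusted limma p under 0.05, groups apart) were MIR186, KRTAP24-1, C4orf33, PIH1D2, CABCOCO1, SMIM30, STAT4, CACNA1D, KIAA0040 and GASK1B, with -0.52 for GASK1B. LYRM9, at -0.70, did not meet that rule. MIR186 and PIH1D2 had both exposed arrays under the signal limit of 4.91, so they were tested only through their controls and no size is given for them. For C4orf33 the groups were only 0.020 apart, and its exposed arrays read 5.82 and 6.52. KIAA0040 had the smallest SE of these 10, 0.072, with 6.06 and 6.11 on the controls and 5.58 and 5.53 after exposure.

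Genes that burn amino acids and fatty acids had more lower than higher values. In the breakdown of branched-chain amino acids and propionate 15 of 26 genes were lower without overlap (57.7%, against 21.7% of all genes) and 1 higher (3.85%). Of all genes with a mean log2 signal between 8 and 10, where the median signals of this and the next list lie, 30.4% were lower and 13.7% higher. The list's median was -0.12 (-0.17 on replicate 1 and -0.076 on replicate 2). ALDH6A1, the methylmalonate semialdehyde dehydrogenase of valine breakdown, read 8.73 and 8.65 on the controls and 8.31 and 8.36 on the exposed arrays, a log2 fold change of -0.36. MMUT, methylmalonyl-CoA mutase, differed by -0.34, and BCAT2, the mitochondrial aminotransferase, by -0.20. Fatty acid oxidation and peroxisome genes had 17 of 30 lower (56.7%) and 1 higher (3.33%) without overlap, with a median of -0.11. SLC25A20, the carnitine carrier, differed by -0.31, EHHADH, a peroxisomal enzyme, by -0.26 and ACADM, the medium-chain dehydrogenase, by -0.20. Both medians stayed under 0 in each of the 22 alternatives, but many of these leave the log2 fold changes unchanged by construction. The medians came to -0.019 and -0.0098 with arrays scaled to ribosomal protein genes. Complex I and ATP synthase subunits had 17 of 48 lower (35.4%) and 0 higher, beside 30.4% lower among all genes with a mean log2 signal between 8 and 10, with a median of -0.056 that became 0.041 with arrays scaled to ribosomal protein genes. NDUFB5, a complex I subunit, differed by -0.28.

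Cytoplasmic ribosomal protein genes leaned the same way and nucleolar ribosome biogenesis genes the opposite way. Of 57 ribosomal protein genes, 33 were lower (57.9%, against 21.7% of all genes and 32.1% of those with a mean log2 signal of 10 or more) and 2 higher (3.51%) without overlap, with a median of -0.094 (by construction near 0, at 0.0033, once the arrays are scaled to these genes). RPS20 read 12.14 and 12.06 on the controls and 11.84 and 11.83 after exposure, a log2 fold change of -0.26, and RPS24 and RPS27 differed by -0.23 and -0.22. Of 41 nucleolar genes 14 were higher (34.1%, against 17.0% of all genes) and 4 lower (9.76%, against 21.7%) without overlap, with a median of 0.056. The evening controls were lower than the morning controls for both lists, with medians of -0.079 and -0.062, and the part of hour or run in the values was not tested.

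Genes of liver-type secreted proteins, which A549 cells express, were among the lower values. C5, complement component 5, read 9.998 and 9.89 on the controls and 9.42 and 9.66 after exposure, a log2 fold change of -0.41. The fibrinogen genes FGB and FGG differed by -0.37 and -0.36, and APOH, a plasma glycoprotein, by -0.36. In their list 15 of 33 were lower (45.5%, against 21.7% of all genes) and 2 higher (6.06%, against 17.0%) without overlap. The median was -0.049 (0.049 with arrays scaled to ribosomal protein genes). Among G2 and M phase genes 18 of 39 were lower (46.2%) and 1 higher (2.56%) without overlap. Of all genes with a mean log2 signal between 8 and 10, 30.4% were lower and 13.7% higher. The list's median of -0.093 became 0.0039 with that scaling, 0.029 with all 4 controls and 0.15 with the evening controls. The hyaluronan receptor HMMR and the phosphatase CDC25C differed by -0.29 and -0.26, while ECT2, a cytokinesis gene, was 0.22 higher. Evening controls were lower than morning controls for this list too, with a median of -0.24. Set against the evening controls, HMMR and CDC25C had log2 values of 0.074 and 0.10 instead.

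Clock genes were examined because the exposures took place at different hours. Within the morning arrays 6 of 19 were higher (31.6%, against 17.0% of all genes) and 7 lower (36.8%, against 21.7%) without overlap. DBP, an output gene of the clock, differed by -0.26, NR1D2, a repressor in its second loop, by -0.32, CRY2 by -0.23 and CRY1 by 0.25. The xenobiotic and antioxidant routes showed little. Of 27 genes in the NRF2 antioxidant list 6 were higher (22.2%) and 8 lower (29.6%) without overlap, against 17.0% and 21.7% of all genes. The list's median was -0.015, which turned above 0 with quantile normalization again, with cyclic loess and, at 0.082, with arrays scaled to ribosomal protein genes. That of the aryl hydrocarbon receptor pathway was -0.042 over 10 genes (3 higher and 5 lower, 50.0%), and 0.056 with that scaling. The metallothionein gene MT2A, induced by zinc and oxidants, was lower, at 11.17 and 11.30 on the controls and 11.03 and 10.86 after exposure, a log2 fold change of -0.29, and MT1F differed by -0.28. In their list of 14 tested, 5 were lower (35.7%, against 21.7% of all genes) and 3 higher (21.4%, against 17.0%) without overlap. The list's median of -0.090 was 0.0028 on replicate 1 and -0.19 on replicate 2. It became 0.0074 with arrays scaled to ribosomal protein genes.

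**Figure D4:**
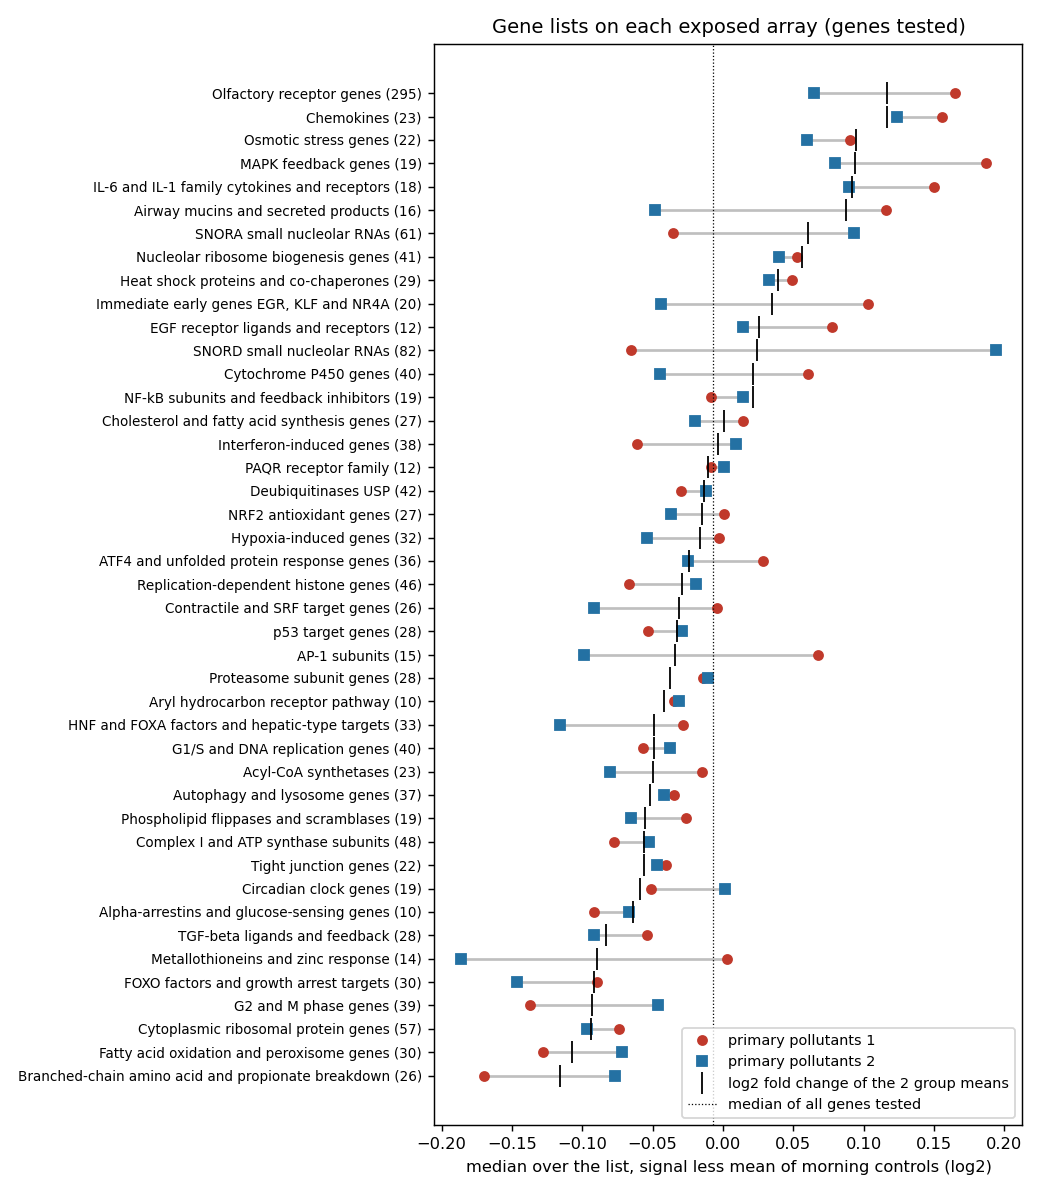
Median log2 signal less the morning control mean (x axis) for each of 43 gene lists, on primary pollutants replicate 1 (circles) and replicate 2 (squares), with the median log2 fold change as a bar and the median of all genes tested as a dotted line. Chemokines, osmotic stress genes and MAPK feedback genes lie to the right on both arrays and branched-chain amino acid genes to the left, whereas the SNORD list has -0.065 on one array and 0.19 on the other; scaled to ribosomal protein genes, the arrays give a median of all genes of 0.090 in place of -0.0073, and the lists shift with it.

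Some lists differed between the exposed arrays more than from the controls. Small nucleolar RNAs of the SNORD class had medians of -0.065 on replicate 1 and 0.19 on replicate 2. AP-1 subunit genes stood at 0.068 and -0.099, immediate early genes at 0.10 and -0.044, and airway mucins and secreted products at 0.12 and -0.048. Other lists too had medians of opposite sign on replicates 1 and 2. Among them were SNORA genes (-0.035 and 0.093), cytochrome P450 genes (0.061 and -0.044) and interferon-induced genes (-0.061 and 0.0091). NRF2 antioxidant genes (0.001 and -0.037), clock genes (-0.051 and 0.0013) and the metallothionein, NF-kB and PAQR lists were others. No direction is read from any of these lists.

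The labelled cell type was checked against its markers. All 7 epithelial markers of the line were above the median gene, led by KRT18 and KRT8 at 14.08 and 13.66 on control replicate 1. Their summed linear signal was 35700 and 34900 on the controls and 34500 and 27800 on the exposed arrays, the lowest on exposed replicate 2. CDH1, E-cadherin, read 10.15 and 10.08 on the controls and 9.70 and 9.71 after exposure, a log2 fold change of -0.41 (SE 0.072, adjusted p = 0.341), and KRT7 differed by -0.22. KRT8 was lower by a gap of 0.013, EPCAM, KRT18 and KRT19 overlapped between groups, and MUC1 was higher, at 0.13, without overlap. Of 8 alveolar type II markers measured, 1, ABCA3, was above the median gene, and the others, with the surfactant genes SFTPB, SFTPC and SFTPD, were under it. Of 5 type I markers 1 was above it, CAV1, which lay above 92.4% of genes. The leukocyte marker PTPRC and the fibroblast marker LUM stayed under the signal limit. The other 5 leukocyte and 6 fibroblast markers measured reached it, CD68 lying above 88.0% and COL1A1 above 67.1% of genes. The summed signal of the leukocyte list was 997 and 1140 on the controls and 1220 and 1030 after exposure, and that of the fibroblast list 768 and 771 on the controls and 750 and 746 after exposure. The club cell marker SCGB1A1 read 6.19 and 6.49 on the controls and 6.80 and 7.03 after exposure. The only other gene of its list, SCGB3A2, read 5.53 and 5.51 on the controls and 5.62 and 5.57 after exposure. The summed signal of these 2 genes was 119 and 136 on the controls and 160 and 178 after exposure, and most of that difference is SCGB1A1. In bulk RNA fewer cells of a type and less RNA per cell cannot be told apart.

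The morning response was set beside the evening one, which had its own controls. The test of the difference (PCA pollutants less evening control, minus primary pollutants less morning control) passed for 77 of 17540 genes (0.439%), 16 higher (0.0912%) and 61 lower (0.348%). That count fell to between 0 and 3 whenever any 1 of the 8 arrays was left out and to 1 in an analysis of variance over the 8 arrays, so it rests on the full set. Of the 15 genes named at the upper end of the morning response, 14 had a PCA value of the same sign, 5 of them larger and 9 smaller; ADAM21, at 0.60 and -0.40, did not, and OR10G2 had 0.63 and 0.0016. CCL2 was 0.84 higher after the primary and 0.97 after the PCA pollutants, SLC5A3 0.81 and 0.85, and NFKBIA 0.59 and 0.61. The differences of 0.13 (SE 0.16), 0.039 (SE 0.12) and 0.020 (SE 0.10) did not pass the test, which does not show that the responses were alike. OAS1 at 0.70 and 1.28 and PAQR5 at 0.66 and 1.13 had larger PCA values, with adjusted p of 0.085 and 0.153 for the difference.

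Of the 15 named at the lower end, all had a PCA value of the same sign, larger in size for 9 and smaller for 6. The smaller ones were DHRS2 (-0.76 and -0.12), MIR186, KRTAP24-1 (-0.58 and -0.042), CABCOCO1, SMIM30 and KIAA0040. TXNIP was at -0.69 and -1.28, ACTA2 at -0.663 and -0.9995, ATP8B1 at -0.60 and -1.56 and ACSM3 at -0.59 and -1.22, and none of these differences passed. It did pass for TP53INP1, at -0.33 and -1.42 (difference -1.09, SE 0.10, adjusted p = 0.023), ALDH6A1, at -0.36 and -1.32 (difference -0.96, adjusted p = 0.0359), DEPTOR, at -0.40 and -1.13 (difference -0.72, adjusted p = 0.0392), and CDH1, at -0.41 and -1.11 (difference -0.70, adjusted p = 0.0392). HEATR5A was 0.55 higher in the morning and 0.14 in the evening exposure, a difference of -0.41 (SE 0.11, adjusted p = 0.122).

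Of the 77 genes, 23 had responses of opposite sign, and in 6 of these the morning difference had an unadjusted p under 0.05. JUN, the AP-1 subunit, read 7.15 and 7.23 on the morning controls, 6.90 and 6.96 after the primary pollutants, 7.29 and 7.28 on the evening controls and 8.09 and 7.98 after the PCA pollutants. Its log2 fold changes were -0.26 and 0.75. The small nucleolar RNA gene SNORD114-2 had -0.42 and 0.60, and BCL6 had 0.22 and -0.52.

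**Figure D5:**
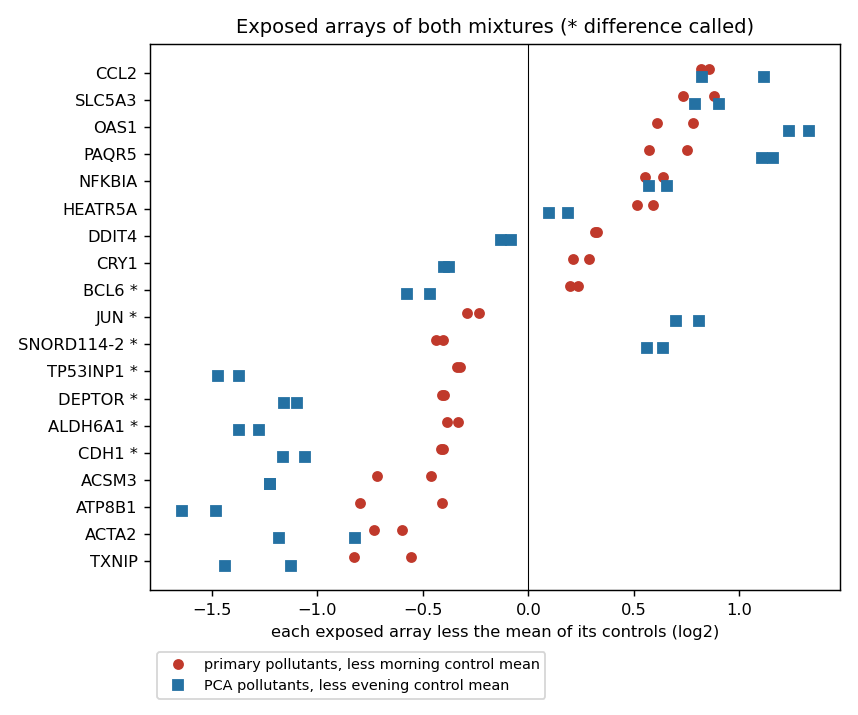
Each exposed array less the mean of its own controls (log2, x axis) for 19 genes, circles for the primary and squares for the PCA pollutants; an asterisk marks genes whose difference between the responses passed the limma test. JUN and SNORD114-2 lie left of 0 in the morning and right of it in the evening exposure, and BCL6 the reverse, with all 77 such calls resting on the full set of 8 arrays.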

How the data were processed

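RNA from A549 cells was measured on 8 Human Gene 1.0 ST arrays, 2 a group. The authors deposited log2 signals after robust multichip averaging, and Partek 6.4 is named in the submitters' processing notes. Such normalization can pull low signals towards a common floor and shrink the differences of dim genes, which was not tested. In these arrays the SD of the log2 fold change over genes was 0.187 under a mean log2 signal of 5 and 0.105 at 10 or more. Of 28869 probe sets, 19310 carry 1 gene symbol, giving 18377 genes; a gene with several was read from the one of highest mean signal. Probe sets reaching a signal of 30 on at least 1 of the 4 morning arrays were tested (25040, covering 17381 genes). A model of the 4 groups was fitted over the 8 arrays with limma 3.58.1 (R 4.3.3; lmFit, eBayes), and p-values were adjusted over all probe sets tested. The labels number the replicates without saying whether cultures were separate, so p-values measure the spread between these arrays. On simulated data 200 probe sets were changed, 50 each by 1.25-, 1.75-, 2.5- and 4-fold, none among the dimmest. Of these, 70% of the 1.75-fold and 4% of the 1.25-fold changes were recovered. The larger changes ease the adjusted threshold for the rest, and no gene here reached 2-fold, so these shares may not hold for this comparison. Genes named are the 15 highest and 15 lowest (unadjusted p under 0.05, groups apart), list members with the smallest p or most extreme values, the study's own genes for this exposure, and cell type markers. CXCL8 was added because the study measured IL-8 protein. Members and lists were chosen with earlier results of these data known. Alternatives covered signal limits, normalization, controls, spread estimates, probe set averaging, a replicate block and each array left out. Promoters come from RefSeq (GRCh38.p14), no other coordinates are given, and figures used matplotlib 3.10.9 and Python 3.11.15.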

Additional observations from a re-analysis of the deposited data

Results flagged for a closer look

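The response to the PCA pollutants less the response to the primary pollutants passed the limma test for 77 genes, and this count of 77 fell to between 0 and 3 when any 1 array was left out. Among the genes named, the difference on the log2 scale was 1.01 for JUN, 1.02 for SNORD114-2 and 0.740 for CXCL8. Their morning values were under 0 and their evening values above it. The difference was -0.737 for BCL6, where the signs were exchanged. It was -1.09 for TP53INP1, -0.962 for ALDH6A1, -0.722 for DEPTOR and -0.703 for CDH1, all 4 lower after both mixtures and lower by more after the PCA pollutants. Groups of 2 arrays were not screened for single arrays that stand apart.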

How the results depend on the processing

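With 0 genes called, the primary comparison had no call to lose. The count became 6 with a trended, robust prior, 5 with all 4 controls and 25 with the evening controls, which were exposed at another hour; it was 0 in the 11 other settings that kept every array and in the 8 that left 1 array out. Genes with an unadjusted limma p under 0.05 and a 1.5-fold difference numbered 17 (11 higher, 6 lower). They became 26 (24 higher, 2 lower) with arrays scaled to ribosomal protein genes, 10 in an analysis of variance over 4 arrays, 27 with all 4 controls and 68 with the evening controls, and 17 to 86 with 1 array left out, the most without primary pollutants replicate 2. The split was 8 higher and 9 lower with arrays centred on their medians, and 9 and 8 with quantile normalization again or cyclic loess. Genes with an unadjusted p under 0.05 went from 1384 (572 higher, 812 lower) to 2355 (2179 higher, 176 lower) under the ribosomal scaling, and to between 649 and 2293 with 1 array left out, the extremes being morning control replicate 1 and primary pollutants replicate 2. Genes whose groups did not overlap went from 6735 to 4041 with all 4 controls, and to 8793 (7726 higher, 1067 lower) under the ribosomal scaling, which moved the median of all genes from -0.0073 to 0.090. With 1 array left in a group, that array was assumed to vary like the others, and overlap was not counted. The difference between the responses passed for 77 genes, and for 16 with no signal limit, 247 with a signal limit of 100, 278 with a trended, robust prior, 1 in an analysis of variance over 8 arrays and 0 to 3 with 1 array left out. The cause was not tested. Same-numbered arrays were not shown to be paired: over 7050 genes of log2 signal 8 or more, exposed 1 less control 1 and exposed 2 less control 2 had a Pearson r of 0.217 (0.421 crossed). With the replicate block 0 genes passed for the primary pollutants, 17 had an unadjusted p under 0.05 with a 1.5-fold difference, 1212 had an unadjusted p under 0.05, and 2 passed for the difference between the responses. The 98 genes counted next do not include every gene named above. Other signal limits, spread estimates, the replicate block and leaving out an evening control or PCA array keep each log2 fold change as it is. Direction is kept by construction in those settings. Nor can leaving out 1 morning array reverse a gene whose groups do not overlap, and many of these genes were named for that. The count of kept directions is therefore no measure of stability. Of 2134 values of 98 named genes under the alternatives, 2124 kept their direction and 10 reversed: ADAM21 to -0.10, DHRS2 to 0.012, HMMR to 0.074, CDC25C to 0.10 and MUC1 to -0.119 with the evening controls; KRT19 to 0.112 with the evening controls, 0.0357 with all 4 controls, 0.0562 under the ribosomal scaling and 0.0167 without primary pollutants replicate 2 (from -0.0986 to 0.0167 over the 8 arrays left out in turn); and KRT18 to 0.037 without primary pollutants replicate 2 (from -0.532 to 0.0371 over the 8 arrays left out in turn).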
